A study of Mus musculus with 6 samples.

Results

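Collecting duct principal cells numbered 922 of the 23578 barcodes kept from 25978 deposited barcodes in 6 single-cell RNA libraries of obstructed mouse kidney. They were chosen from measured values. Barcodes with at least 200 genes and no more than 50% mitochondrially encoded UMIs (unique molecular identifiers, each marking 1 captured transcript) were kept. A barcode entered the class with a sum of at least 4 UMIs over Aqp2, Aqp3, Aqp4, Hsd11b2, Scnn1b and Scnn1g. It also needed under 3 UMIs over the intercalated cell genes Atp6v1g3 and Atp6v0d2, under 3 of the distal convoluted tubule gene Slc12a3, under 2 of the thick ascending limb gene Slc12a1 and at most 5 over the macrophage genes C1qa, C1qb and C1qc. The levels of these genes in the class follow from the rule and are given as a description.

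All 6 mice were C57BL/6 animals whose ureter was obstructed on 1 side by surgery, a model of kidney fibrosis, and all kidneys were taken after 7 days. Of these mice, 3 had received SH045, a small-molecule inhibitor of the cation channel TRPC6, and 3 had received Vehicle, and each library held cells of the obstructed kidney of 1 mouse. The labels name no dose, route, age or sex, and the contralateral kidneys and the spatial samples were not analysed here. The class held 207, 261 and 122 cells in SH045 replicates 1 to 3 and 80, 127 and 125 cells in Vehicle replicates 1 to 3.

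Principal cells line the connecting tubule and collecting duct. They take up sodium through the epithelial sodium channel ENaC under aldosterone and water through the aquaporin AQP2 under vasopressin, and they secrete potassium through ROMK, the product of Kcnj1. HSD11B2 inactivates glucocorticoids in these cells, which leaves the mineralocorticoid receptor, encoded by Nr3c2, to aldosterone. Loss of AQP2 is a known feature of the obstructed kidney.

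The class carried principal cell genes that the rule did not use. Fxyd4, a regulator of the sodium pump, had a mean level over libraries of 2724 CPM (counts per 1e6 counts) in the class and 115 CPM in the other kept barcodes. Avpr2, the vasopressin receptor, stood at 322 CPM against 13.2 CPM, and Kcnj1 at 475 CPM against 55.9 CPM. Trpc6 had 0 UMIs in the class, and 0 of 922 cells allows a share of up to 0.325% of cells with a UMI. Just inside the limit, at a sum of 4, 22 SH045 and 39 Vehicle cells had on average 3.18 and 2.54 Fxyd4 UMIs. Just outside it, at a sum of 3, 37 SH045 and 30 Vehicle barcodes had 2.03 and 0.733.

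The class was not pure. Krt15, a basal keratin of the urothelium, was at 211 CPM in the class against 6.69 CPM elsewhere, and 34 cells had at least 3 UMIs of urothelial markers (5, 12 and 8 in SH045 replicates 1 to 3 and 5, 0 and 4 in Vehicle replicates 1 to 3). At least 10 UMIs of proximal tubule markers were found in 5, 3 and 2 SH045 cells and in 5, 3 and 1 Vehicle cells. In Vehicle 1 the 4 haemoglobin genes summed to 11120 CPM, against 9.65 to 131 CPM in the other 5 libraries, and 7 proximal tubule markers summed to 1760 CPM, against 59.6 to 173 CPM. The 5 fibroblast markers summed to 19.4, 18.5 and 213 CPM with SH045 and 3.27 to 7.57 CPM with Vehicle, with Pdgfra at 3 UMIs or fewer. Other marker sums that did not overlap were those of endothelium (10.6 to 29.1 CPM with SH045, 0 to 3.27 CPM with Vehicle, Kdr at 3 UMIs or fewer), of adipocytes (2 of 5 markers with a UMI, 6.93 to 34.6 and 0 to 2.90 CPM) and of the thick ascending limb (4 markers, 28.3 to 52.7 and 70.3 to 225 CPM). The sums of B or plasma cell, macrophage and intercalated markers, given below, did not overlap either. Nor did that of immunoglobulin genes (52.3 to 187 CPM with SH045, 238.5 to 452.5 CPM with Vehicle). The part of all these transcripts in the results below was not tested. Over 5 UMIs of immune genes were found in 6.28%, 10.3% and 10.7% of SH045 class cells and in 30.0%, 31.5% and 59.2% of Vehicle class cells. Class UMIs per library ran from 528364 to 1837331, library totals from 21186872 to 32256602, and 3 class barcodes occurred in more than 1 library. SH045 against Vehicle over the class, and low against retained cells, were also run without the marker-positive cells, without the immune-positive cells and without each library.

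Principal cells made up a larger part of the kept barcodes in the SH045 libraries. They were 6.05%, 6.55% and 3.37% of kept barcodes with SH045 and 1.93%, 2.98% and 3.02% with Vehicle. The groups did not overlap, although SH045 3 lay near Vehicle 3. The means were 5.32% ± 1.71 and 2.64% ± 0.618 (SD, n = 3 each), a ratio of 2.01, and the two-sided exact permutation p was 0.1, the smallest that 3 against 3 libraries allow. Among principal, intercalated and thick ascending limb cells pooled the groups overlapped, at 38.5% ± 5.83 against 30.2% ± 7.92 (exact p = 0.3). Sums over the class do not tell apart fewer cells with a transcript and less transcript per cell.

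Aqp2, the water channel of the apical membrane, divided the class. Each cell was thinned to 2000 UMIs, and cells were taken that met the rule with Aqp2 left out of the marker sum. Of these cells, 37.3%, 32.7% and 39.5% had 0 Aqp2 UMIs with SH045, and 57.7%, 62.7% and 67.5% with Vehicle. Every Vehicle library lay above every SH045 library. The means were 36.5% ± 3.48 and 62.6% ± 4.89 (SD, n = 3 each), a difference of -26.1 percentage points (two-sided exact permutation p = 0.1). Over the alternatives run, among them the removal of immune-positive, urothelial-marker, proximal-marker and Klk1-positive cells and of each library in turn, the difference in the Aqp2-low share ran from -23.7 to -30.0 points. Entry used unthinned counts in all of these, and none raised the marker sum. Class cells at a sum of 4 had a median of 4071 UMIs with SH045 and 7427 with Vehicle. The part of depth at entry in the Aqp2-low share was not tested.

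The groups were apart in the cells with Aqp2 and overlapped in those without. Aqp2-retained cells, with at least 2 Aqp2 UMIs at equal depth, were 3.39%, 3.64% and 1.71% of kept barcodes with SH045 and 0.603%, 0.844% and 0.677% with Vehicle. The groups did not overlap, and the ratio of means was 4.12 (exact p = 0.1). Aqp2-low cells, with 0 UMIs, made up 2.19%, 2.11% and 1.30% with SH045 and 1.09%, 1.85% and 2.01% with Vehicle, and these ranges overlapped, with a ratio of 1.13 (exact p = 0.5). In numbers, 323 SH045 and 89 Vehicle cells retained Aqp2, 206 and 207 were low, and 48 and 31 had 1 UMI and were left out of both. The names of the states refer to the Aqp2 count alone. Whether low cells had lost Aqp2 or belonged to another segment was not tested. In macrophages, which lack Aqp2, 0.682% had an Aqp2 UMI at the same 2000 UMIs, with a median depth before thinning of 3573 UMIs against 6523.5 in the class.

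**Figure D1:**
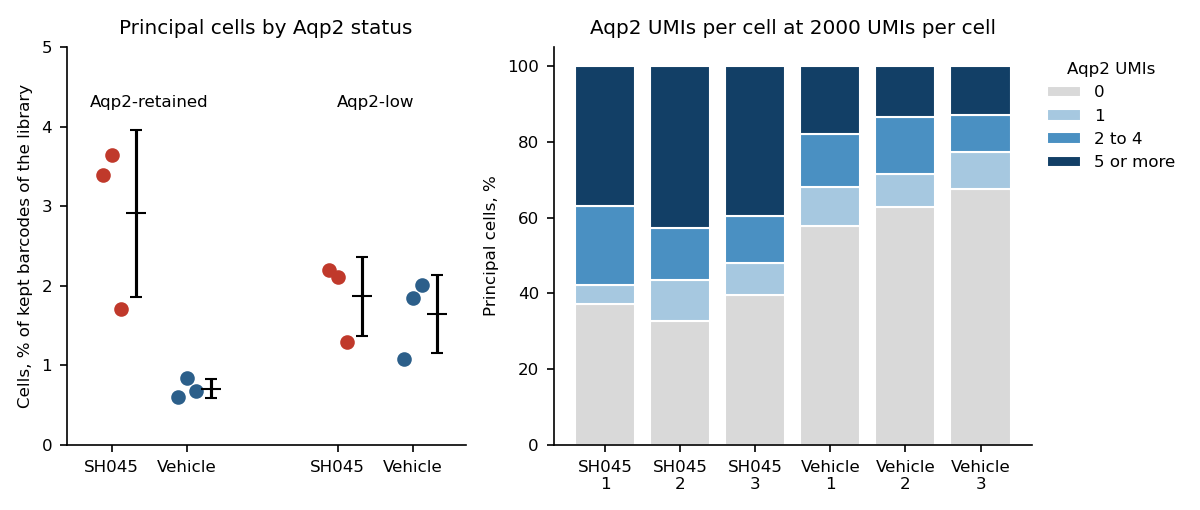
Aqp2-retained and Aqp2-low principal cells by library. Left, each as a percent of kept barcodes, with points for libraries and bars for mean and SD (n = 3 each); right, the percent of class cells with 0, 1, 2 to 4 and 5 or more Aqp2 UMIs after thinning to 2000 UMIs. Retained cells lie between 1.71% and 3.64% with SH045 and between 0.603% and 0.844% with Vehicle, while the low cells overlap.

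The sequences at the start of Aqp2 and of Sgk1 are shown because Aqp2 divides the class and Sgk1 had the largest rise by the naming rule below. Aqp2 lies at chr15:99579055-99584547 on the plus strand and Sgk1 at chr10:21882184-21999903 on the plus strand (mm10). The windows run from 250 bases before to 50 bases after a RefSeq transcript start (GRCm38.p6), at chr15:99578806-99579105 (+) for Aqp2 and chr10:21993640-21993939 (+) for the fifth of 6 listed Sgk1 starts, written 5′ to 3′. That Sgk1 window was chosen after the motif search, as the 1 of the 6 with the full hormone response element described below. Capitals mark matches, on either strand, to the cyclic AMP response core motif TGACG, to the GATA motifs (AGATAA or AGATAG or TGATAA or TGATAG) and to the steroid hormone response core motif TGTTCT.
Aqp2: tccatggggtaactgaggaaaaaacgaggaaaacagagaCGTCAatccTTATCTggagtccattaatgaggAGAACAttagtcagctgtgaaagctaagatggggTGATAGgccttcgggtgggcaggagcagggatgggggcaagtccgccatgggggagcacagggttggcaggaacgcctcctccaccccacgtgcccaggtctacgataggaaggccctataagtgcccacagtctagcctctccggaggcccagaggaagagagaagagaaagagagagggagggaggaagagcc
Sgk1: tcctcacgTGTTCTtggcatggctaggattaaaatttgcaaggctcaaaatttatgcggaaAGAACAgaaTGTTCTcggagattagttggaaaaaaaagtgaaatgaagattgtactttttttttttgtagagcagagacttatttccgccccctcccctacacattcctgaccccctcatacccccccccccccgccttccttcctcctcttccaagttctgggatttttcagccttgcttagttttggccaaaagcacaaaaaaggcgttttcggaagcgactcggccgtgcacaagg
Aqp2 held 1 TGACG match, 2 GATA matches and 1 TGTTCT match. The Sgk1 window held 3 TGTTCT matches, and a pair of them formed the full hormone response element, AGAACA followed after 3 bases by TGTTCT, which occurred in 3 of 32851 windows. The other 5 Sgk1 windows had 0 of the full element, and 2 of them held 1 TGTTCT match each. Since the window was picked for its match, the count over all windows is no measure of how unusual it is. TGACG occurred in 20.8% of all windows, the GATA motifs in 29.8% and TGTTCT in 19.0%. These matches describe letters and show neither binding nor a cause.

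SH045 against Vehicle was compared on counts summed per library over the class with edgeR's quasi-likelihood test. Of 9560 genes tested, 219 (2.29%) passed an adjusted p of 0.05, of which 137 (1.43%) were higher with SH045 and 82 (0.858%) lower. Libraries of the 2 groups did not overlap for 22.3% of all genes tested. Sgk1, Scnn1a, Ppargc1a and the mechanosensitive channel gene Piezo1 rose, and Itgb6, Spink12 and Pth1r fell, in the full comparison and in each of the 6 fits that left out 1 library. The count itself moved with the libraries: it was 88, 111 and 110 without SH045 1, 2 and 3, and 271, 135 and 79 without Vehicle 1, 2 and 3. All 219 called genes that could be tested again kept their sign in each of those 6 fits. Those fits reuse the libraries in which the genes were called, so the signs are a description and no separate support.

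Transcript length moved with the comparison. The median log2 difference was -0.15 among the shortest 10% of transcripts and 0.31 among the longest 10%, and the called genes had a median length of 4993 bases when higher, 1676 when lower and 3277 over all tested. Across the 9557 genes with a length, Spearman's rho was 0.393, as a description, since genes share libraries. Intercalated cells of the same libraries had the same kind of trend, from -0.21 to 0.37. With the trend removed 128 genes (1.34%) were called, 69 higher and 59 lower, 105 of them among the 219. With immune-positive cells removed 105 were called, 46 higher and 59 lower, and DESeq2 called 169, 89 higher and 80 lower. Without urothelial-marker or proximal-marker cells 300 genes (3.3%) were called, 207 of them among the 219.

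**Figure D2:**
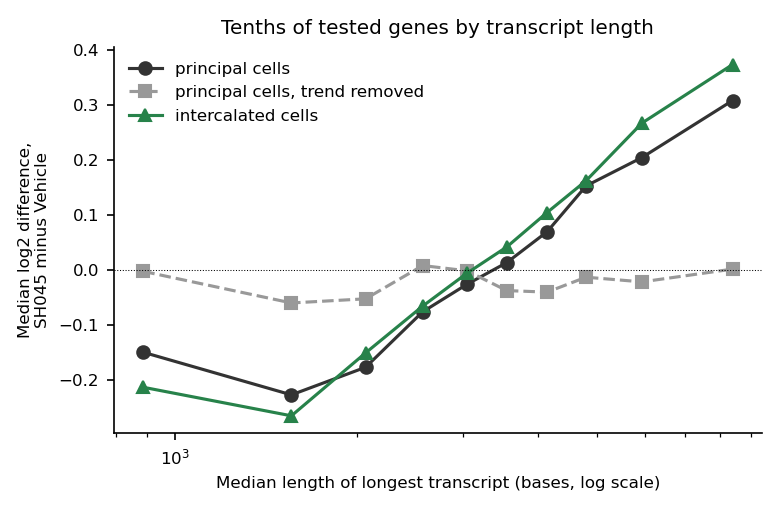
Median log2 difference (SH045 minus Vehicle) by transcript length (bases, log axis; each point is 10% of the genes) in principal cells, in principal cells after removal of the trend, and in intercalated cells. In principal cells the medians run from -0.15 for the shortest transcripts to 0.31 for the longest.

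Some genes of sodium uptake and of the mineralocorticoid response rose with SH045. Sgk1, the kinase that keeps ENaC at the membrane and is induced by aldosterone, had 90.1, 126 and 119 CPM with SH045 and 15.1, 11.6 and 29.4 CPM with Vehicle. Every SH045 library lay far above every Vehicle library, with a log2 difference of 2.47 ± 0.28 (SE, adjusted p = 0.000359). Scnn1a, the alpha subunit of ENaC (chr6:125320659-125344943, mm10), had 299, 197 and 211 CPM against 100, 125 and 110 CPM. The groups did not overlap, and the log2 difference was 1.02 ± 0.17 (adjusted p = 0.00261). Usp2, a deubiquitinase whose targets include ENaC, had 88.7, 104 and 119 CPM against 43.5, 46.3 and 58.0 CPM, without overlap (1.02 ± 0.20, adjusted p = 0.00913). These 3 calls held without each library in turn.

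Nr3c2, the mineralocorticoid receptor, was at 40.9, 31.6 and 27.5 CPM with SH045 and at 7.57, 11.6 and 15.5 CPM with Vehicle. It did not overlap and rose by 1.40 ± 0.31 (adjusted p = 0.0184), but its call was lost without SH045 1, SH045 2 or Vehicle 2 (highest adjusted p = 0.116). The Nr3c2 call was also lost with the length trend removed, without immune-positive cells, at a marker sum of at least 8 and with the replicate number as a block. Within retained cells Nr3c2 differed by 0.81 ± 0.46 and did not pass (adjusted p = 0.503). Stk39, the kinase SPAK, rose by 0.80 ± 0.19 and Ddit4, a stress-induced inhibitor of mTOR, fell by 0.74 ± 0.17. Each lost its call in 4 of the 6 fits without 1 library, Stk39 without SH045 1, 2, 3 or Vehicle 3 (highest adjusted p = 0.17) and Ddit4 without SH045 2, SH045 3, Vehicle 2 or Vehicle 3 (0.11). Of 15 tested members of the list of aldosterone and glucocorticoid targets, which includes Sgk1, Scnn1a and Nr3c2, 5 rose and 1 fell, with a median of 0.52 beside -0.00139 over all genes. Tsc22d3, the glucocorticoid-induced gene GILZ, was at 22.2, 21.8 and 22.2 CPM against 20.8, 27.0 and 6.53 CPM and did not pass (0.30 ± 0.39, adjusted p = 0.747).

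The genes of the rule were measured again in cells that entered without the gene in question. Hsd11b2 (chr8:105518755-105523988, mm10), over 778 such cells, had 2404, 2657 and 2310 CPM with SH045 and 1408, 1525 and 1217 CPM with Vehicle. The groups were well apart, and it rose by 0.79 ± 0.17 (adjusted p = 0.0113). Within the Aqp2 states, where its own count was part of entry, Hsd11b2 is given as a description. Retained cells had 3266, 3463 and 3679 CPM with SH045 and 3074, 3102 and 3040 CPM with Vehicle. Low cells had 915, 1188 and 836 CPM against 649, 701 and 560 CPM. The part of the mix of Aqp2 states in the Hsd11b2 rise was not tested. Aqp2, over 904 cells, had 2704, 3819 and 2348 CPM against 1937, 741 and 1004 CPM. The groups did not overlap, but Vehicle 1 lay near SH045 3, and the difference of 1.25 ± 0.42 did not pass (adjusted p = 0.219). The ENaC subunits Scnn1b (0.45 ± 0.18, adjusted p = 0.22) and Scnn1g (0.18 ± 0.17, 0.639) and the basolateral water channel Aqp3 (0.76 ± 0.53, 0.534) did not pass either.

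Other genes of transport differed less. Fxyd4 had 2868, 4263 and 2308 CPM with SH045 and 2739, 2508 and 1661 CPM with Vehicle. The groups overlapped (0.42 ± 0.25, adjusted p = 0.446). Kcnj1 had 671, 616 and 517 CPM against 479, 339 and 227 CPM, without overlap, and did not pass (0.76 ± 0.22, adjusted p = 0.0931). Atp1b1, the beta subunit of the sodium pump, rose by 0.79 ± 0.17 (adjusted p = 0.0131) and Npnt, a basement membrane protein of the collecting duct, by 0.86 ± 0.19 (0.0192). Stc1, the hormone stanniocalcin, fell by 0.72 ± 0.17 (0.028). Atp1b1 lost its call without SH045 1 or Vehicle 3, Npnt without those or Vehicle 2, and Stc1 without SH045 2, SH045 3, Vehicle 2 or Vehicle 3, with highest adjusted p values of 0.11, 0.159 and 0.169. Within retained cells Npnt differed by 0.40 (adjusted p = 0.46) and Atp1b1 by 0.64 (0.145). Within low cells they differed by 0.12 (0.871) and 0.47 (0.342), and neither gene passed in either state. The part of the mix of Aqp2 states in their rises was not tested. Apart from the genes of the rule, 3 of 13 tested transport genes rose and 1 fell, with a median of 0.59.

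The vasopressin arm showed no called gene. Avpr2 had 306, 486 and 224 CPM with SH045 and 369, 329 and 218 CPM with Vehicle, with full overlap (0.13 ± 0.33, adjusted p = 0.888). Of 22 tested genes of vasopressin and cyclic AMP signalling edgeR and DESeq2 called 0, with 6 at an unadjusted edgeR p under 0.05 and a median of 0.13. At equal depth 35.3% of SH045 and 35.2% of Vehicle cells had an Avpr2 UMI, against 0.208% of macrophages. The shares for Fxyd4 were 78.5% and 68.7% (macrophages 1.28%), and for Sgk1 they were 17.0% and 3.01%, where macrophages, which express Sgk1 themselves, had 4.02%.

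Among transcription regulators, 4 of 22 tested genes rose and 0 fell, with a median of 0.35. Gata3, a regulator of collecting duct identity, had 375, 267 and 321 CPM with SH045 and 161, 146 and 203 CPM with Vehicle. It did not overlap and rose by 0.87 ± 0.17 (adjusted p = 0.00913), a call lost without Vehicle 2 (0.0604). Ppargc1a, the coactivator PGC-1alpha of mitochondrial biogenesis, had 129, 93.1 and 101 CPM against 36.0, 49.2 and 35.1 CPM. Its groups were far apart (1.37 ± 0.20, adjusted p = 0.00112), and the call held without each library. Of 64 genes of oxidative phosphorylation edgeR and DESeq2 called 0, with 2 at an unadjusted edgeR p under 0.05 and a median of -0.00294. The collecting duct regulators Tfcp2l1 (0.04 ± 0.17, adjusted p = 0.939) and Elf5 (0.67 ± 0.36, 0.362) did not pass.

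Foxi1, the regulator of intercalated cells, was the 4th riser among these regulators. It had 19.4, 22.9 and 24.0 CPM with SH045 and 1.89, 6.75 and 7.35 CPM with Vehicle, without overlap (1.84 ± 0.41, adjusted p = 0.0184). Its call was lost without SH045 2, SH045 3, Vehicle 2 or Vehicle 3 (highest adjusted p = 0.079). The Foxi1 call was also lost without immune-positive cells and with the replicate number as a block. The 6 intercalated markers, among them Foxi1, summed to 43.5 to 79.5 CPM with SH045 and 18.9 to 43.4 CPM with Vehicle. In intercalated cells Foxi1 stood at 586 ± 19.1 CPM and 568 ± 78.3 CPM (SD, n = 3 each). The part of intercalated transcripts in the rise was not tested. Atp4a and Atp12a, which encode the gastric and the colonic proton-potassium pumps, rose by 1.57 ± 0.28 (adjusted p = 0.00418) and 1.78 ± 0.42 (0.0469). Atp4a lost its call without Vehicle 3 (0.0517) and Atp12a without SH045 1, SH045 3, Vehicle 2 or Vehicle 3 (highest adjusted p = 0.186). The Atp12a call was also lost with the length trend removed and at a mitochondrial limit of 20%.

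**Figure D3:**
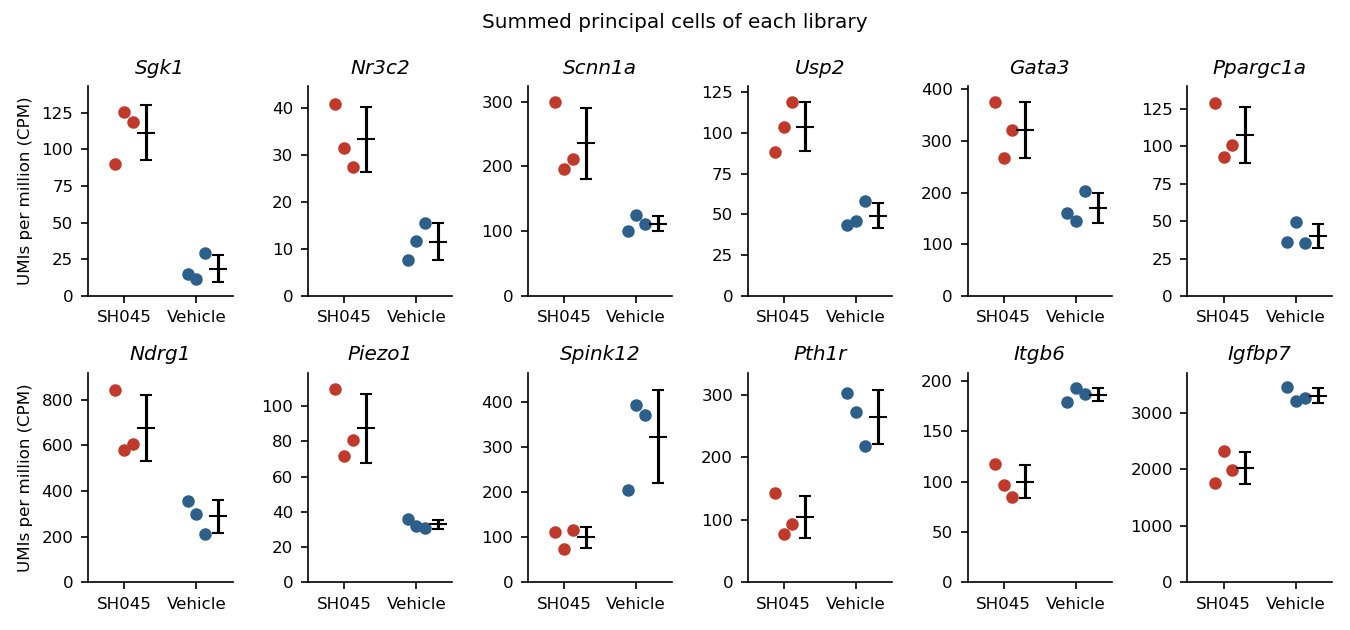
CPM per library (points) with mean and SD (n = 3 each) for 12 genes of the class with SH045 and Vehicle, each on its own linear axis from 0. Sgk1, Nr3c2, Scnn1a, Usp2, Gata3, Ppargc1a, Ndrg1 and Piezo1 are higher with SH045, and Spink12, Pth1r, Itgb6 and Igfbp7 are lower, without overlap.

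The other large rises covered several roles. Ednrb, the endothelin B receptor, which acts against sodium uptake in the collecting duct, had 43.6, 33.2 and 31.1 CPM with SH045 and 15.1, 11.6 and 5.72 CPM with Vehicle. It did not overlap and rose by 1.80 ± 0.34 (adjusted p = 0.00617), a call lost without Vehicle 3 (0.0722) and with immune-positive cells removed (1.16, adjusted p = 0.105). The 5 endothelium markers, whose totals were also higher with SH045 in the class, are given above, and their part in the Ednrb rise was not tested. Prkaa2, a catalytic subunit of the energy sensor AMPK, rose by 1.51 ± 0.25 (0.00261). The cytoskeletal gene Nav1 (1.60 ± 0.23, adjusted p = 0.00112) and the ankyrin repeat gene Sowahc (1.50 ± 0.25, 0.00261) also rose, and these 3 held without each library. Dpp4, a membrane peptidase, rose by 1.50 ± 0.30 and lost its call without Vehicle 3 (0.0807). Mfsd4a (1.83), Epsti1 (1.73) and the collagen gene Col27a1 (1.50) were also among the 12 largest rises, and each lost its call in at least 3 of the fits without 1 library (highest adjusted p = 0.103, 0.0851 and 0.0959). Mfsd4a was lost without SH045 1, SH045 3, Vehicle 2 or Vehicle 3, Epsti1 without SH045 1, SH045 2, Vehicle 2 or Vehicle 3, and Col27a1 without SH045 1, Vehicle 2 or Vehicle 3.

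Some metabolic and redox genes rose. Ndrg1, a gene induced by hypoxia and differentiation, had 843, 581 and 605 CPM with SH045 and 356, 301 and 212 CPM with Vehicle. The groups did not overlap, the rise was 1.18 ± 0.20 (adjusted p = 0.00261), and it held without each library. Pfkfb3, an activator of glycolysis, rose by 1.68 ± 0.38 (0.0185), and lost its call without SH045 1, SH045 2 or Vehicle 3 (0.117). The Pfkfb3 call was also lost without immune-positive cells and with the replicate number as a block. Ndrg1 and Pfkfb3 were the 2 of 23 glycolysis and hypoxia genes that rose, and 0 fell. Gclc, the catalytic subunit for glutathione synthesis, rose by 1.06 ± 0.20 (0.0052), lost without Vehicle 3 (0.064), and was 1 of 3 of 21 metal and oxidative stress genes that rose. The other two, Txnrd1 (0.61, adjusted p = 0.0436) and Mt1 (0.72, 0.0488), lost their calls in 6 and 5 of the 6 fits without 1 library, Mt1 in all but that without SH045 1, with highest values of 0.162 and 0.271.

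A few injury genes fell with SH045. Itgb6, the integrin subunit that activates TGF-beta, had 118, 96.9 and 85.2 CPM with SH045 and 180, 193 and 187 CPM with Vehicle. The groups were well apart, the difference was -0.94 ± 0.16 (adjusted p = 0.00261), and it held without each library. Spp1, osteopontin, had 2039, 1618 and 1345 CPM against 1957, 2950 and 3429 CPM, so SH045 1 lay above Vehicle 1. It fell by 0.78 ± 0.20 (adjusted p = 0.0394), and the call was lost in each fit without 1 library except that without Vehicle 1 (highest adjusted p = 0.196). Tnfrsf12a, the receptor of TWEAK, fell by 0.85 ± 0.18 (0.0114), lost without SH045 1, SH045 3, Vehicle 2 or Vehicle 3 (0.0921). Of 29 tested genes of tubule injury and dedifferentiation, 0 rose and 3 fell, and 23 had a negative difference, with a median of -0.41. Over all 9560 genes 0.858% were called lower and 4790 had a negative difference. With the length trend removed the list median was -0.27. In low cells 12 of 28 tested members had a positive difference (median -0.19), and in retained cells 3 of 21 (median -0.51). The part of the mix of Aqp2 states in the list was not tested.

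Several well-known injury genes did not pass. Lcn2, the injury marker NGAL, had 3015, 3176 and 2041 CPM with SH045 and 3305, 4581 and 2838 CPM with Vehicle, with overlap (-0.42 ± 0.20, adjusted p = 0.301). The keratins Krt8 (-0.55 ± 0.19, 0.119) and Krt18 (-0.56 ± 0.17, 0.0908), Clu (-0.32 ± 0.16, 0.321) and the cell cycle inhibitor Cdkn1a (-0.57 ± 0.17, 0.0864) did not pass. Of 17 tested p53 targets edgeR and DESeq2 called 0, with 6 at an unadjusted edgeR p under 0.05 and a median of -0.50. Of 28 cell cycle genes 26 had negative differences, with a median of -0.75, and the 1 called gene was Cdk4 (-0.77 ± 0.16, adjusted p = 0.0122), a call lost without SH045 2, SH045 3 or Vehicle 3 (0.0889).

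Secreted factors fell in part. Igfbp7, a secreted binder of insulin-like growth factors linked to tubule stress, had 1764, 2326 and 1989 CPM with SH045 and 3448, 3209 and 3252 CPM with Vehicle. The groups were far apart, and the difference was -0.74 ± 0.17 (adjusted p = 0.0203). Plau, the urokinase gene, had 68.6, 52.8 and 94.0 CPM against 106, 156 and 171 CPM, without overlap (-1.09 ± 0.21, adjusted p = 0.0109). Both lost their calls in 4 of the 6 fits without 1 library, Igfbp7 without SH045 1, SH045 3, Vehicle 2 or Vehicle 3 (highest adjusted p = 0.121) and Plau without SH045 1, SH045 2, Vehicle 2 or Vehicle 3 (0.105). With Spp1 they were the 3 of 18 tested profibrotic factors that fell, while 0 rose, with a median of -0.40. With the length trend removed 1 of the 3 calls was left, that of Plau, and with immune-positive cells removed Plau lost its call. In retained cells 6 of 12 tested members had a positive difference. Tgfb2, a TGF-beta ligand, had 172, 46.8 and 94.0 CPM against 199, 204 and 263 CPM and did not pass (-1.16 ± 0.47, adjusted p = 0.331). Wnt7b, a Wnt ligand of the collecting duct, did not pass either (-0.13 ± 0.33, 0.887).

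Immune and interferon genes gave few calls, and immune transcripts themselves differed between the groups. Nfkbia, the NF-kB inhibitor, fell by 0.90 ± 0.22 (adjusted p = 0.0451), lost without SH045 2, SH045 3, Vehicle 1 or Vehicle 2 (0.188), and was 1 of 18 tested NF-kB and chemokine genes. Ifi27 fell by 0.70 ± 0.17 (0.0298), lost in every fit without 1 library except that without Vehicle 1 (0.139), and was 1 of 28 interferon and class I genes. The 7 tested MHC class II genes had negative differences throughout, with a median of -0.72, 0 calls by edgeR, 1 at an unadjusted p under 0.05, and 1 call by DESeq2. The 4 MHC class II genes used as immune markers summed to 385 to 1004 CPM with SH045 and 988 to 1256 CPM with Vehicle, and the 5 B or plasma cell markers to 22.2 to 108 CPM and 167 to 328 CPM. The 6 macrophage markers, whose C1q genes the rule capped, summed to 72.0 to 100 CPM and 116 to 166 CPM. Their part in these lists was not tested.

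Junction, matrix and stretch genes went both ways. Piezo1, the stretch-gated channel, had 109, 71.8 and 80.7 CPM with SH045 and 36.0, 31.8 and 31.0 CPM with Vehicle. The groups were far apart, the rise was 1.38 ± 0.21 (adjusted p = 0.00169), and it held without each library. In the same list of 24 tested stretch and YAP targets, 3 actin-linked genes fell, namely Tagln2 (-0.77), Tpm1 (-0.70) and Myl12a (-0.70). They lost their calls in 4, 5 and 5 of the 6 fits (highest adjusted p = 0.133, 0.151 and 0.215), which left Tagln2 called without SH045 3 and Vehicle 1, and Tpm1 and Myl12a without Vehicle 1. Ctnnb1, beta-catenin, rose by 0.86 ± 0.17 (0.00905), lost without SH045 1 (0.0548), while Dkk1, a secreted Wnt inhibitor at 2.66 to 3.46 CPM against 9.46 to 13.1 CPM, fell by 1.98 ± 0.52 (0.0451), lost in all 6 fits (0.223). Cldn6, an embryonic claudin, fell by 1.26 ± 0.25 (0.0115), lost without SH045 1, SH045 2, Vehicle 2 or Vehicle 3 (0.0996).

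**Figure D4:**
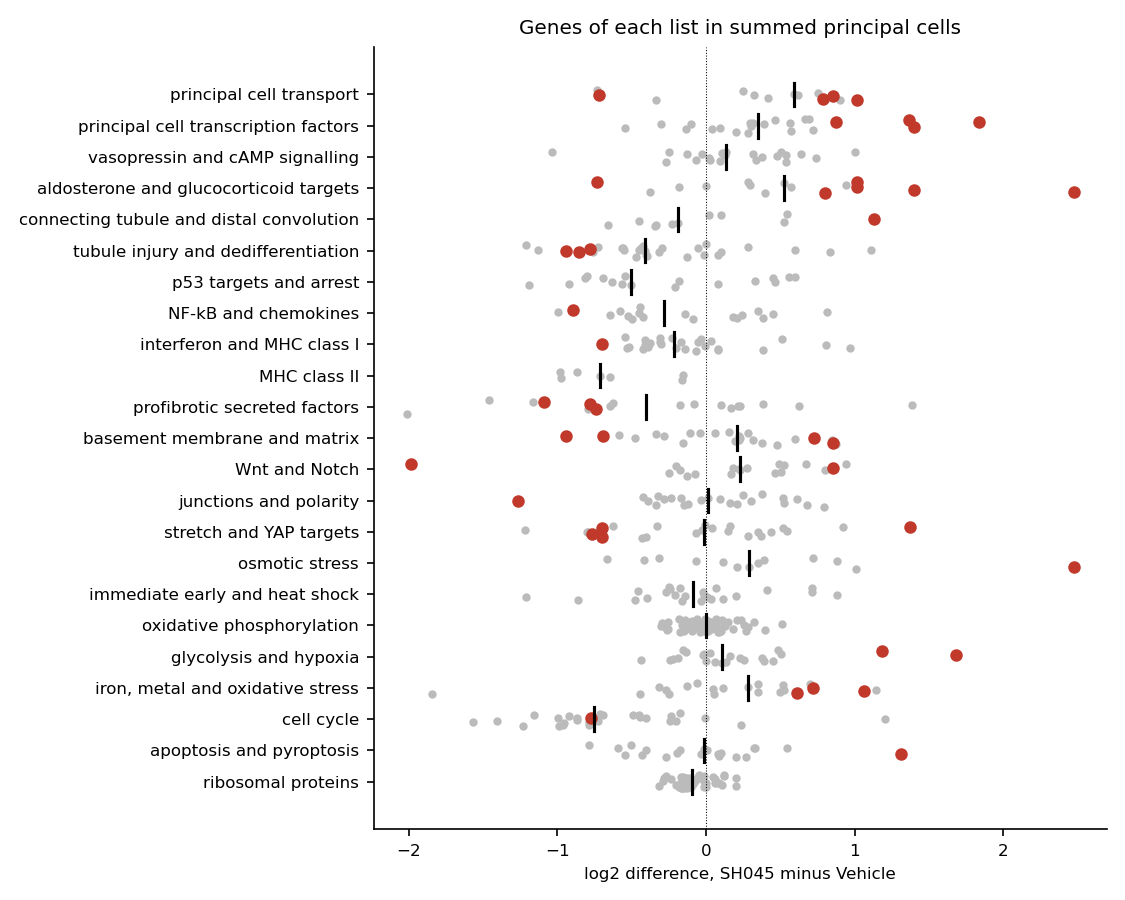
Log2 difference (SH045 minus Vehicle) of the tested members of each gene list in the class, with genes of the rule left out. Each point is a gene, red where called, and the black bar is the list's median, which is 0.59 for principal cell transport, 0.52 for aldosterone and glucocorticoid targets and -0.75 for the cell cycle.

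The largest falls outside these lists were in genes of varied function. Spink12, a protease inhibitor, had 112, 73.5 and 116 CPM with SH045 and 204, 394 and 371 CPM with Vehicle. The groups did not overlap, with a difference of -1.75 ± 0.24 (adjusted p = 0.00261). Pth1r, the parathyroid hormone receptor, had 143, 77.3 and 94.0 CPM against 303, 273 and 218 CPM, without overlap (-1.38 ± 0.19, adjusted p = 0.00112). Within retained cells Pth1r stood at 22.1 ± 7.53 CPM with SH045 and 22.5 ± 5.58 CPM with Vehicle (SD, n = 3 each). Within low cells Pth1r differed by -0.84 ± 0.22 and did not pass (adjusted p = 0.112). The thick ascending limb markers, given above, were lower with SH045 in the same libraries. The part of these markers, and of the mix of Aqp2 states, in the fall of Pth1r was not tested. Car4, a membrane carbonic anhydrase, had the largest fall by the naming rule, from 62.5, 37.6 and 43.3 CPM with Vehicle to 11.8, 6.53 and 13.3 CPM with SH045 (-2.22 ± 0.32, adjusted p = 0.00112). The transcription factor gene Scx (-1.49 ± 0.21, adjusted p = 0.00112), the leukotriene C4 synthase gene Ltc4s (-1.28 ± 0.22, 0.00261), Nradd (-1.85 ± 0.33, 0.00361) and Limd2 (-1.32 ± 0.21, 0.00169) fell too. These 7 calls held without each library. Within low cells Car4 (-1.56, adjusted p = 0.056), Scx (-1.48, 0.056), Ltc4s (-0.68, 0.209), Nradd (-1.61, 0.097) and Limd2 (-1.035, 0.0778) did not pass. Within retained cells Scx (-0.61, 0.503), Nradd (-2.19, 0.09575) and Limd2 (-1.24, 0.169) did not pass, and Car4 and Ltc4s were not tested there. The part of the mix of Aqp2 states in these falls was not tested. Spink12 lost its call with the length trend removed (-1.57, adjusted p = 0.141) and Ltc4s with cells thinned to equal depth (-1.03, 0.0743).

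The remaining large falls were less stable. Cp, ceruloplasmin, fell by 1.88 ± 0.33 (adjusted p = 0.00964) and lost its call without SH045 1 (0.0996). Ppp1r1a, an inhibitor of protein phosphatase 1, fell by 1.59 ± 0.33 and lost it without SH045 1 or SH045 2 (0.0935). Calml3 (-1.33) lost it without SH045 2, SH045 3 or Vehicle 3 (0.0743). Cxcl17 (-1.42) lost it in all fits but that without Vehicle 1 (0.241) and Ddah1 (-1.30) in all but that without Vehicle 3 (0.117).

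Because the SH045 class held more Aqp2-retained cells, the treatment was also compared within each Aqp2 state. In retained cells 26 of 5873 genes (0.443%) were called, 19 of them among the 219, and of the 187 genes of the 219 that could be tested there 184 had the same sign. In low cells 5 of 7619 genes (0.0656%) were called, 1 of them among the 219, and 196 of 198 had the same sign. The cells of both states are part of the sums in which the 219 were called. The sign counts are therefore a description and no separate support. Without urothelial-marker and proximal-marker cells the low cells gave 49 calls, 31 of them among the 219. The sums rest on fewer cells than the whole class, in the Vehicle libraries on 25, 36 and 28 retained cells.

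Sgk1 in retained cells had 139, 172 and 190 CPM with SH045 and 36.2, 23.2 and 19.2 CPM with Vehicle. All 3 SH045 libraries lay far above, with a rise of 2.72 ± 0.35 (adjusted p = 2.12e-05). In low cells it had 25.3, 60.1 and 41.3 CPM against 9.06, 8.85 and 32.8 CPM, with overlap (1.15 ± 0.48, adjusted p = 0.374). The difference between the states in this response did not pass (adjusted p = 0.819). Scnn1a (0.97 ± 0.23, adjusted p = 0.0433), Usp2 (1.50 ± 0.36, 0.0433), Ppargc1a (1.47 ± 0.33, 0.0293), Ndrg1 (0.84 ± 0.20, 0.0433), Mt1 (2.26 ± 0.33, 0.00471) and Atp12a (3.22 ± 0.66, 0.018) also rose within retained cells. Spink12 (-1.51 ± 0.25, adjusted p = 0.00171), Nfkbia (-1.53 ± 0.26, 0.00175) and Tnfrsf12a (-1.48 ± 0.30, 0.0144) fell there, and Igfbp7 (-0.89 ± 0.17, 0.0487) fell in low cells.

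Fxyd4 within retained cells differed by -0.32 ± 0.21 (adjusted p = 0.597) and within low cells by -0.03 ± 0.19 (0.974), where the whole class had 0.42. Avpr2 differed by -0.51 ± 0.44 (0.712) and -0.19 ± 0.20 (0.767), where the whole class had 0.13. Gata3 differed by 0.77 ± 0.22 (0.119) and 0.73 ± 0.20 (0.125). Thus the sign of Fxyd4 and Avpr2 changed within the states, and that of Gata3 did not. Spp1 in retained cells differed by 1.06 ± 0.63 (0.618), against -0.57 ± 0.29 (0.507) in low cells.

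Aqp2-low cells were then compared with Aqp2-retained cells of the same libraries, with the library as a block. The cells were split by Aqp2 in the data that were tested, so genes that vary together with Aqp2 across the cells of the class differ here by construction of the split. Of 7076 genes 1108 (15.7%) were called, 500 higher in low cells (7.07%) and 608 lower (8.59%). All 34 urothelial-marker cells were low cells, and 0 of 412 retained cells reached 3 such UMIs, which allows a share of up to 0.728% of cells at that level. The urothelium markers summed to at most 14.5 CPM in the retained cells of any library. Of the 69 cells with at least 5 Klk1 UMIs, 55 were low, and over 5 immune UMIs were found in 10.7% to 63.9% of low cells and in 2.59% to 46.4% of retained cells by library. Median depth was 7469 UMIs in low and 6041.5 UMIs in retained cells. Without urothelial-marker and proximal-marker cells 978 genes were called, of which 792 were among the 1108.

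A number of principal cell genes were lower in low cells. Fxyd4 had 799, 968, 744, 893, 999 and 648 CPM in the low cells of SH045 1 to 3 and Vehicle 1 to 3, and 4570, 6891, 4040, 7408, 6061 and 5768 CPM in the retained cells. It was lower in all 6 libraries, with a difference of -2.75 ± 0.10 (SE, adjusted p = 2.78e-25). Ptger1, a prostaglandin E2 receptor of the collecting duct, had 4.51 to 13.2 CPM in low cells and 69.8 to 262 CPM in retained cells, lower in 6 of 6 libraries (-4.33 ± 0.27, adjusted p = 3.54e-15). Avpr2 was at 147 ± 22.6 CPM in low and 614 ± 268 CPM in retained cells (SD, n = 6), lower in 6 of 6 (-1.94 ± 0.30, adjusted p = 0.00941). Kcnj1 (-1.96 ± 0.11), Npnt (-1.98 ± 0.10) and the transcription factor genes Elf5 (-3.07 ± 0.37) and Ehf (-1.02 ± 0.11) were lower in 6 of 6 libraries, with adjusted p from 6.23e-20 to 9.83e-09.

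Other genes lower in low cells in 6 of 6 libraries were the calcium channel gene Mcoln3 (-3.77), the peptide hormone gene Apela (-3.69), the growth factor gene Btc (-3.20), the potassium channel subunit gene Kcne1 (-2.85), Pappa (-3.31), Wnt9b (-1.79), the glucose transporter gene Slc2a1 (-1.47) and Ndrg1 (-1.79). Scnn1a (-1.08 ± 0.14) and Gata3 (-0.60 ± 0.11) were lower in 6 of 6, and Sgk1 (-1.64 ± 0.26) in 5 of 6. Apart from the genes of the rule, 8 of 13 tested transport genes were lower and 2 higher in low cells, as were 8 and 2 of 20 transcription regulators and 6 and 3 of 20 vasopressin pathway genes. Lcn2 was lower in low cells, at 1916 ± 1083 CPM against 4749 ± 889 CPM, in 6 of 6 libraries (-1.47 ± 0.27, adjusted p = 0.0186). That call was lost without SH045 1, SH045 2 or Vehicle 1 (highest adjusted p = 0.0667).

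Low cells had more of a set of injury, matrix and connecting tubule genes. Pth1r had 307, 176, 167, 456, 406 and 290 CPM in the low cells of SH045 1 to 3 and Vehicle 1 to 3 and 25.8, 13.5, 27.1, 28.9, 19.3 and 19.2 CPM in the retained cells. It was higher in 6 of 6 libraries, by 3.60 ± 0.18 (adjusted p = 1e-20). Fxyd2, the sodium pump regulator of more proximal tubule segments, had 2118 to 5164 CPM against 19.3 to 535 CPM (4.08 ± 0.52, adjusted p = 0.00473). Ankrd1, a YAP target, had 96.6 to 432 CPM against 0 to 43.3 CPM (4.33 ± 0.62, 0.00711). Tgfb2 was at 241 ± 98.2 CPM against 47.3 ± 30.1 CPM (SD, n = 6), higher in 6 of 6 (2.30 ± 0.35, 0.00438), and Spp1 at 3228 ± 1082 CPM against 716 ± 457 CPM, higher in 6 of 6, did not pass (2.29 ± 0.57, adjusted p = 0.055).

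Of 25 tested injury and dedifferentiation genes 12 were higher and 1 lower in low cells, with a median of 0.52. Without urothelial-marker and proximal-marker cells 12 were higher and 5 lower, with a median of 0.35. Among the injury and stress genes that were higher were Anxa3 (3.15 ± 0.25), the transcription factor gene Sox4 (0.73 ± 0.10), Cdkn1a (1.60 ± 0.23) and the p53 target Pmaip1 (1.69 ± 0.25), each in 6 of 6 libraries. Col4a1 (0.84 ± 0.13) and Col4a2 (1.03 ± 0.16), which encode the main basement membrane collagen, were higher in 6 of 6, as were Cldn6 (2.25 ± 0.27), Plau (1.25 ± 0.18), Hspb1 (1.77 ± 0.14) and the calcium channel gene Trpv5 (0.66 ± 0.10). Hoxd10, a homeobox gene, was higher by 1.96 ± 0.23. Of 10 tested connecting tubule genes 3 were higher and 1, the calcium buffer gene Calb1 (-1.17 ± 0.12), was lower. Klk1, the kallikrein of the connecting tubule, was at 204 to 1207 CPM in low and 7.73 to 143 CPM in retained cells (4.37 ± 0.69, adjusted p = 0.011). A connecting tubule origin of low cells was not tested.

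Part of the higher set moved with the marker-positive cells. Sprr1a, a squamous epithelial gene, was higher by 7.26 ± 0.49 and by 3.12 without urothelial-marker and proximal-marker cells, Akr1b8 by 3.94 and 1.22, S100a6 by 3.69 and 0.80, and Cdkn1a by 1.60 and 0.89. S100a6 lost its call without SH045 1 or SH045 2 (highest adjusted p = 0.0602). The ribosomal protein genes had 33 of 48 higher in low cells, and 5 of 48 without those cells. In contrast Pth1r (3.84), Fxyd2 (4.33), Ankrd1 (4.60) and Tgfb2 (2.53) were as high or higher without them, and Fxyd2 (4.12) and Ankrd1 (4.71) also without Klk1-positive cells. Pdlim1, Slitrk4 and Ppp1r1a, which are among the 12 largest rises, had only 2, 7 and 7 UMIs in all retained cells.

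**Figure D5:**
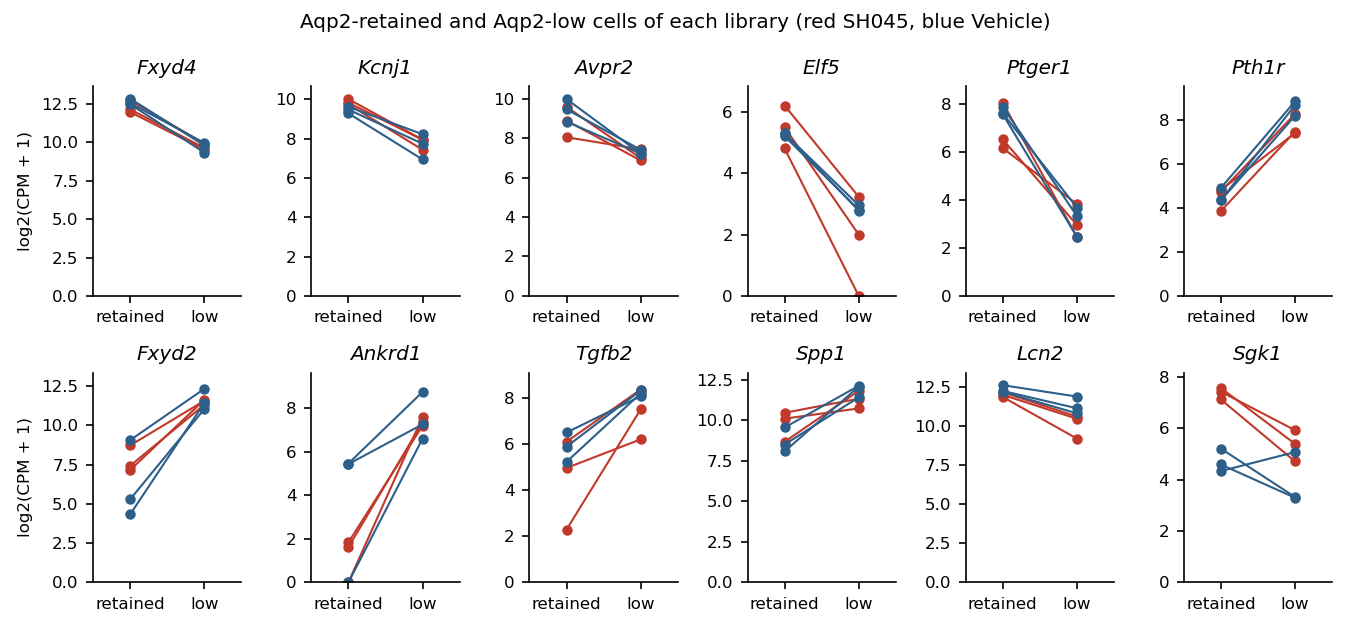
Levels, as log2 of CPM plus 1, in Aqp2-low and Aqp2-retained cells, with each line joining both states of 1 library. Fxyd4, Kcnj1, Avpr2, Elf5 and Ptger1 are lower and Pth1r, Fxyd2, Ankrd1 and Tgfb2 higher in the low cells of all 6 libraries.

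Whether the difference between low and retained cells depended on the treatment was tested as an interaction, which called 5 of 8251 genes (0.0606%), with 384 at an unadjusted p under 0.05. Apart from Aqp3, a gene of the rule, these were Cd63, Ankrd1, Lrp1 and Rflnb. Cd63, a membrane protein of late endosomes, had in retained cells 2075, 1878 and 2522 CPM with SH045 and 1360, 1541 and 1198 CPM with Vehicle, and in low cells 1585, 1445 and 1362 CPM against 1817, 2010 and 1682 CPM. It was thus higher with SH045 in retained cells and lower in low cells, without overlap in either, with an interaction of -0.99 ± 0.17 (adjusted p = 0.00223). The call for Cd63 held in 5 of the 6 fits without 1 library (highest adjusted p = 0.0506) and those for Ankrd1, Lrp1 and Rflnb in 2, 2 and 1.

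The treatment response of principal cells was set against that of intercalated cells, the other cell type of the collecting duct, of which 1192 were found. Alone, intercalated cells gave 168 of 8348 called genes (2.01%), and 64 of 10124 genes (0.632%) responded differently in the 2 classes. Lcn2 in intercalated cells was at 235 ± 47.5 CPM with SH045 and 1114 ± 478 CPM with Vehicle (SD, n = 3 each), a larger fall than the one in principal cells given above (difference of responses 1.84 ± 0.17, adjusted p = 6.34e-08). Spp1 had 9360 ± 606 and 6783 ± 984 CPM in intercalated cells, higher with SH045, while it was lower in principal cells (-1.17 ± 0.16, adjusted p = 0.000409). Foxi1 rose in principal cells relative to intercalated cells (1.84 ± 0.32, adjusted p = 0.00449). These 3 calls held without each library, while the count ran from 20 to 62, with 20, 23, 24 and 29 calls without SH045 2, Vehicle 1, Vehicle 2 and Vehicle 3.

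Against the 613 thick ascending limb cells, which alone gave 8 of 7166 called genes (0.112%), 20 of 9678 genes (0.207%) responded differently. Tmsb4x, an actin-binding peptide gene, had 9805, 10600 and 8932 CPM with SH045 and 6443, 5842 and 6423 CPM with Vehicle in principal cells, and 1105 ± 227 and 1240 ± 121 CPM in thick ascending limb cells. Its difference of responses was 0.92 ± 0.16 (adjusted p = 0.00261). Ncam1, a neural adhesion molecule, had 11.5 to 38.1 CPM against 32.2, 103 and 91.5 CPM in principal cells, with overlap, and means of 36.6 and 18.4 CPM in the limb (-2.77 ± 0.41, adjusted p = 0.000724). Both calls held without each library, and the count ran from 11 without Vehicle 1 to 41 without SH045 1, with 36 and 33 without Vehicle 2 and Vehicle 3.

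The leading genes of the principal cell response were looked up in both tests, a choice made after their values were seen. Sgk1 was at 25.3 ± 8.99 CPM with SH045 and 9.26 ± 5.14 CPM with Vehicle in intercalated cells (1.25 ± 0.39, adjusted p = 0.0866), and at 3.64 ± 3.55 and 3.11 ± 1.04 CPM in thick ascending limb cells. Its response did not differ past the threshold from that of intercalated cells (1.38 ± 0.46, adjusted p = 0.289) or of limb cells (2.43 ± 0.82, 0.264). Gata3 rose in intercalated cells too (0.74 ± 0.19, adjusted p = 0.0346), and Spink12 fell there (-1.87 ± 0.38, 0.00888). Pth1r stood at 653 ± 73.7 and 614 ± 22.5 CPM in limb cells, and its response differed from that of principal cells (-1.35 ± 0.24, adjusted p = 0.0206). Scnn1a, Usp2, Nr3c2, Ppargc1a, Ndrg1, Piezo1, Itgb6 and Igfbp7 passed neither test, with adjusted p from 0.0569 to 0.991.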

How the data were processed

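Single-cell RNA libraries of 6 obstructed kidneys (3 mice with SH045, 3 with Vehicle) were made with Singleron GEXSCOPE beads, with 6000 cells targeted per library per the labels. The authors deposited raw UMI counts per gene and barcode; the build was mm10 per the submitters' processing notes, and no aligner, counting program or cell-calling rule is named in those sources. The lowest barcode total was 2166 to 3175 UMIs by library. The matrices held 31276 genes in all.

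The members and the gene lists were chosen with earlier results of these data known. Counts were summed per library over the class and tested with edgeR 4.0.16 (TMM, default low-count filter, robust quasi-likelihood) under R 4.3.3, with Benjamini-Hochberg adjusted p over all genes and a call at 0.05. The replicate is the mouse, per the labels, and not the cell. Aqp2 states came from counts thinned to 2000 UMIs per cell, and low against retained cells and all interactions had the library as a block. Shares were compared by two-sided exact permutation tests (scipy 1.17.1). Doublets were scored with Scrublet (scanpy 1.11.5) and kept; 5, 14, 9, 2, 1 and 5 class cells of SH045 1 to 3 and Vehicle 1 to 3 lay in the top 5% of their libraries. Whether counting used strand is unknown, so antisense partners cannot be told apart.

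Named genes are the fixed genes, the 12 largest rises and falls among called genes without overlap and at least 20 CPM (haemoglobin, immunoglobulin, sex-linked and unnamed models left out), the 4 list members with the smallest p, and the 8 leading genes of each interaction; other called list members were chosen after their values were seen. One gene that met the rule is not reported here. Simulated data for SH045 against Vehicle had 9560 genes, 200 of them changed. The test recovered 53% of 2-fold and 97% of 4-fold changes, with 16 unchanged genes called. For low against retained cells (7076 genes, 200 of them changed) it recovered 77% and 95%, with 16. Alternatives were the test of DESeq2 1.42.0, edgeR with DESeq2's size factors, no filter, a replicate block, each library left out, other cell filters, removal of a transcript length trend (spline, 5 degrees of freedom) and removal of marker-positive cells. The last, and the fits within each Aqp2 state, were added after the data were seen. Intervals and floors cover counting error only.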

Additional observations from a re-analysis of the deposited data

Results flagged for a closer look

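Principal cells and a second cell type, or both Aqp2 states, responded differently to SH045 for the genes below, by edgeR's interaction test with the library as a block. Differences are log2, principal minus other or low minus retained.

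Against intercalated cells 64 genes differed. The 8 leading genes were Lcn2 (1.84), Spp1 (-1.17), the inhibitors of differentiation Id1 (1.43) and Id3 (1.10), the ammonia channel gene Rhcg (1.16), Plet1 (0.96), the actin-binding gene Cald1 (-3.28) and Foxi1 (1.84). The calls of Id3 and Cald1 were lost in 1 of the 6 fits without 1 library (highest adjusted p = 0.0509 and 0.128), and the other six held in each.

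Against thick ascending limb cells 20 genes differed. They were led by Ncam1 (-2.77), Calml4 (-3.38), the protease inhibitor gene Serpinb1a (1.77), Cyp2j5 (-3.44), Dcdc2a (-1.16), Tmsb4x (0.92), Tmem174 (-4.64) and Akr1c21 (-4.50). Tmem174 and Akr1c21 lost their calls in 2 and 1 of the 6 fits without 1 library (highest adjusted p = 0.0615 and 0.215). Cyp2j5, Tmem174 and Akr1c21 are known from the proximal tubule, and 7 proximal tubule markers summed to 1760 CPM in the class of Vehicle 1 against 59.6 to 173 CPM in the other libraries, and their part in these 3 values was not tested.

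Between Aqp2 states 5 genes differed, the rule gene Aqp3 and Cd63 (-0.99), Rflnb (2.38), Ankrd1 (3.54) and Lrp1 (2.90). Cd63 lost its call in 1 of the 6 fits without 1 library, Rflnb in 5, and Ankrd1 and Lrp1 in 4 each (highest adjusted p = 0.0506, 0.162, 0.276 and 0.574). Ankrd1 had 0 to 2.58 CPM in retained cells with SH045 and 0 to 43.3 CPM with Vehicle, with 24 UMIs over all retained cells.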

How the results depend on the processing

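For SH045 against Vehicle the 219 calls became 419 without the low-count filter, 128 with the length trend removed, 105 without immune-positive cells, 117 with a marker sum of at least 8, 120 with cells thinned to 2000 UMIs, and 79 to 271 with each library left out. With the replicate number as a block 86 genes were called, 79 of them among the 219. Same-numbered libraries correlated at -0.14, -0.143 and 0.0924 in their deviations, and pairs of unlike number at -0.0823 to 0.208. With 3 libraries per group these values cannot decide whether the numbers pair the mice. Within low cells 5 genes were called, 49 without urothelial-marker and proximal-marker cells, and within retained cells 26; the number of cells summed differs in these. Low against retained cells gave 682 calls by DESeq2 and 720 without immune-positive cells. The Aqp2 state by treatment interaction gave 1 to 6 calls with each library left out and 2 without marker-positive cells. Against intercalated cells the range was 20 to 62, and against limb cells 11 to 41. The shares kept their direction in all alternatives run.

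Signs changed for some genes that were not called in the whole class. Fxyd4 was -0.031 in low and -0.32 in retained cells. Avpr2 ran from -0.25 to 0.35 with each library left out and was -0.13 without immune-positive cells, -0.17 at a marker sum of 8, -0.19 in low and -0.51 in retained cells. Tfcp2l1 ran from -0.081 to 0.13 with each library left out and was -0.13, -0.31, -0.095 and -0.24 without immune-positive cells, with the length trend removed, at a marker sum of 8 and in retained cells. Wnt7b ran from -0.44 to 0.19 with each library left out and was 0.012 in low cells. In retained cells Spp1 was 1.06 and Ifi27 0.36, both called lower in the whole class. The cause of these changes was not tested.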

Other observations

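Other gene groups of the class gave few calls with SH045. Of 24 tested immediate early and heat shock genes edgeR and DESeq2 called 0, with 3 at an unadjusted edgeR p under 0.05 and a median of -0.09, and of 48 ribosomal protein genes both called 0, with 0 at an unadjusted p under 0.05 and a median of -0.10. Among 24 basement membrane and matrix genes Col4a4, a basement membrane collagen chain, rose (0.73 ± 0.17, adjusted p = 0.0201), as did Npnt, and Cd151 fell (-0.69 ± 0.16, 0.0184), as did Itgb6, with a list median of 0.21. Col4a4 lost its call in 4 of the 6 fits that left out 1 library, all but those without SH045 3 and Vehicle 1 (highest adjusted p = 0.139), and Cd151 in all but that without Vehicle 1 (0.10). With the length trend removed Col4a4 (0.38, adjusted p = 0.298) and Npnt (0.68, 0.0649) were not called, 0 genes of the list rose and its median was -0.05; with immune-positive cells removed neither was called (0.188 and 0.105).

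Among 11 tested connecting tubule genes 1 rose, the monocarboxylate transporter gene Slc16a7 (1.13 ± 0.22, adjusted p = 0.00812), a call lost without SH045 3 or Vehicle 3 (0.0775), and 0 fell, with a list median of -0.19. The Slc16a7 call was also lost with a replicate block, without immune-positive cells, with the length trend removed and with cells thinned to equal depth. Among 21 apoptosis genes 1 rose, the death ligand gene Tnfsf10 (1.31 ± 0.31, adjusted p = 0.0237), lost in every fit without 1 library but that without Vehicle 1 (0.119). Of 23 junction genes 0 rose and 1 fell, and of 13 osmotic stress genes 1 rose, which was Sgk1. Of 19 Wnt and Notch genes 1 rose and 1 fell.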
